A study of Mus musculus with 4 samples.

Results

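Luminal hormone-sensing cells of the mouse mammary gland were compared between 2 CTL and 2 LATS1/2-KO mice by droplet-based single-cell RNA sequencing, 1 library per mouse. All 4 mice were Lats1f/f;Lats2f/f;R26-lsl-EYFP, and the LATS1/2-KO mice also carried Krt8-CreERT2, a tamoxifen-inducible Cre driven by the *Krt8* promoter, which is active in luminal cells. The CTL mice had no Cre and 1 lsl-EYFP allele, as did LATS1/2-KO replicate 1, whereas LATS1/2-KO replicate 2 was homozygous for lsl-EYFP. Adult nulliparous females were all given 2 mg tamoxifen on 5 consecutive days, and live sorted cells of the mammary glands were collected 7 days after the last dose. The stage of the oestrous cycle was not given in the labels, so the levels of hormone-responsive genes cannot be told apart from the stage at which each mouse was collected.

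Cells were chosen by transcript counts. A member carried at least 10 UMIs of *Krt8* and *Krt18* per 10000, fewer than 0.5% collagen UMIs (*Col1a1*, *Col1a2*, *Col3a1*) and at least 3 of the 6 hormone-sensing genes *Esr1*, *Foxa1*, *Pgr*, *Cited1*, *Prlr* and *Prom1*. The mean level of these 6 genes also had to exceed that of the progenitor genes *Elf5*, *Plet1*, *Ehf*, *Kit*, *Aldh1a3* and *Csn3*. The rule found 2518 members among 18200 cells: 1147 and 888 in the CTL mice and 366 and 117 in the LATS1/2-KO mice. *Wnt4*, a progesterone-induced ligand of these cells that is outside the rule, was picked after its values were seen. It stood at 431 and 382 CPM in the CTL mice and 455 and 582 CPM in the LATS1/2-KO mice. Progenitor-type luminal cells chosen by the mirrored rule held 59.03 and 63.7 CPM in CTL and 35.1 and 35.5 CPM in LATS1/2-KO. As 1 gene picked this way it does not settle the label. Of 18 identity genes outside the rule, 7 were higher and 5 lower in LATS1/2-KO members, *Gata3* and *Fgfr2* among the lower. Over all genes tested, 14.9% were higher and 13.3% lower. Members of these mice with an *EYFP* UMI had 0 higher and 10 lower of 16, against those without. Over all genes of that test, 9.62% were higher and 7.50% lower.

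Hormone-sensing cells are the luminal lineage that carries the oestrogen and progesterone receptors. They answer ovarian hormones and prolactin by secreting paracrine factors such as amphiregulin (*Areg*), RANKL (*Tnfsf11*) and WNT4, which act on neighbouring cells. LATS1 and LATS2 are the kinases of the Hippo pathway that phosphorylate the coactivators YAP and TAZ and keep them out of the nucleus. Without the kinases YAP and TAZ bind TEAD factors at genes such as *Ctgf*, *Cyr61* and *Ankrd1*. The comparison asks what this deletion does in the hormone-sensing lineage, in which *Krt8* is active.

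The share of hormone-sensing cells was lower in the LATS1/2-KO libraries. Members made up 23.3% of kept cells in CTL replicate 1 (95% exact binomial interval 22.2 to 24.6%) and 25.3% in CTL replicate 2 (23.8 to 26.7%). They made up 8.14% in LATS1/2-KO replicate 1 (7.35 to 8.97%) and 2.22% in LATS1/2-KO replicate 2 (1.84 to 2.65%). The intervals cover counting error only and did not overlap between conditions. After each cell was thinned to 2000 UMIs the shares were 12.7 and 12.6% in CTL and 2.26 and 0.656% in LATS1/2-KO. Of luminal cells alone, members were 25.6 and 27.3% against 9.51 and 3.40%. Because the rule counts the 6 genes, fewer hormone-sensing cells and less RNA of these genes per cell cannot be told apart. Luminal cells that met neither the hormone-sensing nor the mirrored progenitor rule were 7.30 and 4.03% of luminal cells in CTL and 40.7 and 37.0% in LATS1/2-KO. They were shallower than the members, with medians of 2681 and 3085 UMIs in CTL and 4331 and 4303 UMIs in LATS1/2-KO. Just inside the limit, with 3 of the 6 genes detected, were 175, 78, 159 and 46 cells in the order CTL 1, CTL 2, LATS1/2-KO 1 and LATS1/2-KO 2. Just outside it, with 2 detected, were 62, 28, 138 and 72 cells.

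**Figure D1:**
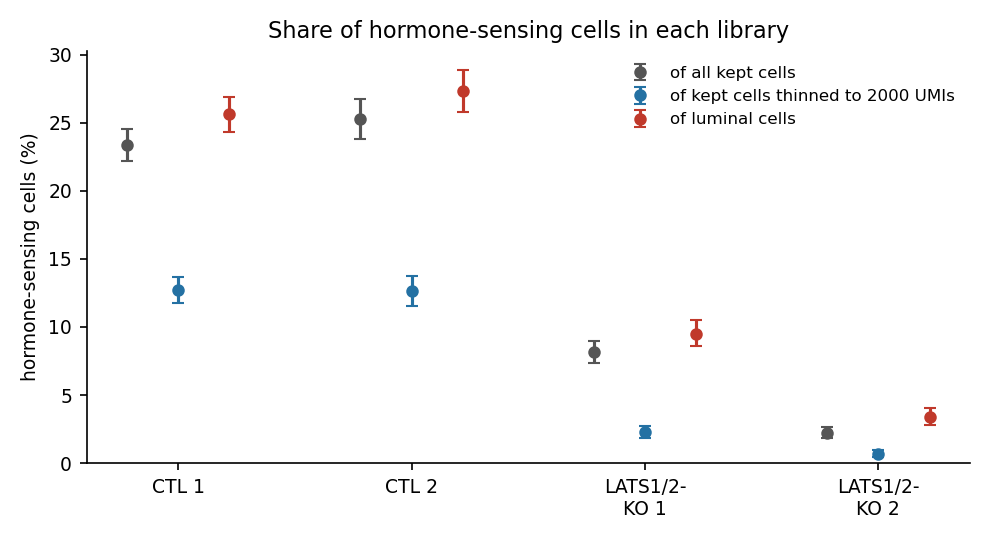
Share of hormone-sensing cells (%) in each of the 4 libraries, with 95% exact binomial intervals, of all kept cells, of kept cells thinned to 2000 UMIs and of luminal cells. Under each denominator both LATS1/2-KO libraries lie below both CTL libraries, and LATS1/2-KO replicate 2 lies lowest.

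The members' depth differed as well. A CTL member held a median of 12614 UMIs in replicate 1 and 16096 in replicate 2, a LATS1/2-KO member 9361 and 10986, and the members' counts summed to 15169104, 16274851, 3745034 and 1395724 UMIs. Cells of a mouse are not replicates, so the sums of the 4 mice were compared (n = 2 per condition). Of the kept cells' barcodes, 43 were shared between libraries, of which 1 belonged to a member in both.

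The genes of the rule are given as values only, since they chose the cells. *Prlr*, the prolactin receptor, stood at 3875 and 3132 CPM in the CTL mice and 1012 and 823 CPM in the LATS1/2-KO mice. *Cited1*, a coregulator of the oestrogen receptor, stood at 1282 and 1149 against 400.01 and 583 CPM in the same order. The progesterone receptor *Pgr* stood at 194 and 166 against 101 and 72.3 CPM and the surface marker *Prom1* at 78.8 and 93.9 against 24.3 and 13.9 CPM. For these 4 genes both LATS1/2-KO values lay below both CTL values. The oestrogen receptor *Esr1* (53.3 and 41.1 against 52.1 and 54.2 CPM) overlapped between the groups, while *Foxa1*, a pioneer factor of that receptor, stood at 175 and 154 against 155 and 139 CPM. Of the progenitor genes, *Plet1* was the farthest apart, with 369.9 and 271 against 69.2 and 72.96 CPM, followed by *Elf5* with 14.97 and 15.3 against 3.74 and 2.08 CPM, both lower in the LATS1/2-KO mice. *Kit* (13.2 and 15.2 against 8.55 and 3.47 CPM), *Aldh1a3* (18.02 and 18.6 against 13.6 and 9.73 CPM) and *Csn3* (89.7 and 136 against 51.8 and 29.2 CPM) were also lower, and *Ehf* overlapped (33.3 and 38.6 against 42.2 and 28.5 CPM). *Krt8* stood at 5009.7 and 4917 against 6957 and 6414 CPM and *Krt18* at 6876 and 6487 against 7141 and 6884 CPM. The collagen genes, kept under the limit in every member, stood at 0.406 and 1.98 against 63.3 and 88.9 CPM (*Col1a1*), 1.15 and 1.797 against 51.04 and 73.7 CPM (*Col1a2*) and 0.881 and 1.43 against 72.1 and 90.3 CPM (*Col3a1*).

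The targeted genes did not mark the deletion in these counts. *Lats1* had 22.1 and 22.2 against 22.7 and 16.7 CPM (log2 fold change -0.12 ± 0.18 SE, adjusted p = 0.725) and *Lats2* 11.2 and 12.3 against 16.6 and 18.8 CPM (log2 fold change 0.57 ± 0.18 SE, adjusted p = 0.0623). The counts come from the 3′ end of transcripts, which can lie outside the deleted part, so they check nothing about recombination. *EYFP*, the Cre reporter, did separate the genotypes. At least 1 *EYFP* UMI was found in 3 of 1147 and 4 of 888 members of the CTL mice, against 51 of 366 (13.9%, exact interval 10.6 to 17.9%) and 28 of 117 (23.9%, 16.5 to 32.7%) in LATS1/2-KO. Non-epithelial cells of the LATS1/2-KO libraries, which should lack it, carried it in 2.06 and 2.75% of cells at median depths of 5519 and 4359 UMIs. Progenitor-type cells of these mice carried it in 20.8 and 24.7%. A cell without an *EYFP* UMI may still have recombined, since a UMI can be missed.

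Against CTL, hormone-sensing cells of LATS1/2-KO mice gained transcripts of *Igfbp2*, *Msln*, *Ctgf* and *Krt14* and lost transcripts of *Fxyd2*, *Tox2* and *Ido1*. In edgeR's quasi-likelihood test, 3451 of 12227 genes (28.2%) passed an adjusted p of 0.05. Of all genes tested, 1822 (14.9%) were higher and 1629 (13.3%) lower in LATS1/2-KO. Without LATS1/2-KO replicate 1 the count was 1212, and without LATS1/2-KO replicate 2 it was 1699. *Igfbp2*, an insulin-like growth factor binding protein, was at 4 and 0 UMIs over all members of the CTL mice and at 5194 and 2520 UMIs in the LATS1/2-KO mice. In CPM this was 0.271 and 0 against 1388 and 1751 CPM (log2 fold change 13.42 ± 0.43 SE, adjusted p = 0.000125). *Msln*, the surface glycoprotein mesothelin, stood at 0.135 and 0.3098 against 151 and 344 CPM (log2 fold change 9.97 ± 0.63 SE, adjusted p = 0.000571), where the CTL values rest on 2 and 5 UMIs. Both groups lay far apart for these genes, with next to no signal in CTL.

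Genes named for their size of change had an adjusted p under 0.05, a mean log2 CPM of at least 5 and no overlap between the groups. Genes outside these limits can have larger log2 values. *Ctgf*, a matricellular YAP/TAZ target, rose from 2.303 and 0.991 to 139 and 205 CPM (log2 fold change 6.69 ± 0.35 SE, adjusted p = 0.000412). *Krt14*, the keratin of basal cells, stood at 8.27 and 2.79 against 596 and 457 CPM (log2 fold change 6.59 ± 0.46 SE, adjusted p = 0.000748). *Pmp22*, a membrane protein of myelin that epithelia also express, stood at 0.948 and 1.18 against 96.5 and 77.8 CPM (log2 fold change 6.35 ± 0.20 SE, adjusted p = 0.000125), and *Cald1*, the actin-binding caldesmon, at 14.3 and 9.605 against 310.2 and 318 CPM (log2 fold change 4.72 ± 0.20 SE, adjusted p = 0.000165). The remaining pair of the 8 gains named by these limits were *Fabp4*, a fatty acid carrier of adipocytes and endothelium (1.42 and 0.929 against 119 and 20.2 CPM, log2 fold change 6.0019, adjusted p = 0.00474), and *Igfbp7*, a secreted binding protein of vessels (6.57 and 10.9 against 351 and 404 CPM, log2 fold change 5.42, adjusted p = 0.00023). Both stood far higher in non-epithelial cells of the same libraries than in members: *Fabp4* at 2031 and 3363 CPM in CTL and 8477 and 3681 CPM in LATS1/2-KO, and *Igfbp7* at 829 and 431 CPM in CTL and 2832 and 1732 CPM in LATS1/2-KO. With free RNA subtracted, the log2 fold change was 5.96 for *Igfbp7* (adjusted p = 0.000532), and *Fabp4* was left with too few counts to be tested.

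The 8 losses named by the same limits differed in known function. *Fxyd2*, the gamma subunit of the sodium pump, fell from 1229.8 and 809.7 to 3.74 and 5.56 CPM (log2 fold change -7.89 ± 0.33 SE, adjusted p = 0.000165). *Ido1*, which degrades tryptophan, stood at 74.9 and 66.7 against 1.07 and 0.695 CPM (log2 fold change -6.18 ± 0.24 SE, adjusted p = 0.000158), with 4 and 1 UMIs left in the LATS1/2-KO mice. *Phyh*, a peroxisomal enzyme of branched fatty acids, kept more of its transcripts, with 957 and 729.7 against 108 and 75.7 CPM (log2 fold change -3.16 ± 0.22 SE, adjusted p = 0.000722). The nuclear factor gene *Tox2* (139 and 105 against 1.87 and 0 CPM, log2 fold change -6.49, adjusted p = 0.000594) and the diacylglycerol kinase *Dgki* (69.5 and 37.4 against 2.405 and 0 CPM, -4.95, adjusted p = 0.0038) were at 0 UMIs in LATS1/2-KO replicate 2. The carbonyl reductase *Cbr2* (68.1 and 36.2 against 1.07 and 3.47 CPM, -4.87, adjusted p = 0.0034), the cytochrome P450 *Cyp3a57* (69.8 and 71.2 against 10.7 and 2.08 CPM, -3.15, adjusted p = 0.00278) and the whey acidic protein family member *Wfdc12* (93.6 and 59.3 against 8.55 and 15.3 CPM, -2.83, adjusted p = 0.00349) completed the 8 named losses. *Cbr2* and *Wfdc12* no longer passed without LATS1/2-KO replicate 1. In progenitor-type cells *Fxyd2* stood at 74.6 and 64.4 CPM in CTL and 0.273 and 0.542 CPM in LATS1/2-KO (log2 fold change -7.68, adjusted p = 7.23e-06) and *Cbr2* at 145 and 228 CPM in CTL and 3.73 and 4.73 CPM in LATS1/2-KO (-5.77, adjusted p = 2.19e-05).

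Genes of hormone-sensing identity outside the rule moved in both directions. Of 18 tested, 7 were higher and 5 lower, with a median log2 fold change of 0.37, beside -0.01 over all genes tested. *Areg*, the epidermal growth factor family ligand downstream of the oestrogen receptor, stood at 1206 and 643 CPM in the CTL mice and 3340.1 and 2813 CPM in the LATS1/2-KO mice (log2 fold change 1.74 ± 0.29 SE, adjusted p = 0.00864). After thinning, an *Areg* UMI was found in 55.04 and 42.3% of members in CTL and 89.6 and 87.2% in LATS1/2-KO (unthinned 75.5 and 72.97% and 96.2 and 93.2%), against 5.11 and 3.06% and 2.16 and 1.34% of thinned non-epithelial cells. *Spdef*, a transcription factor of secretory epithelium, rose from 5.89 and 7.81 to 29.1 and 27.8 CPM (log2 fold change 2.06 ± 0.21 SE, adjusted p = 0.00191). *Stc2*, the oestrogen-responsive stanniocalcin, stood at 186 and 212 against 413 and 459.98 CPM (log2 fold change 1.13 ± 0.12 SE, adjusted p = 0.00201). *Fgfr2*, a fibroblast growth factor receptor, fell (209 and 197 against 102 and 104 CPM, log2 fold change -0.99 ± 0.10 SE, adjusted p = 0.00186), and so did *Gata3*, the transcription factor of luminal fate (354 and 268 against 136 and 142 CPM, log2 fold change -1.16 ± 0.15 SE, adjusted p = 0.00446; named after its values were seen). The orphan receptor *Esrrb*, also named after its values were seen, set the low end of the list. It was at 108 and 60 UMIs in CTL and at 0 in both LATS1/2-KO mice, at least 9.53-fold lower when taken against a floor of 3 UMIs over the group. Without LATS1/2-KO replicate 1 the list counted 3 higher and 1 lower, and neither *Areg* (1.59) nor *Gata3* (-1.14) passed. Without CTL replicate 2 it counted 9 and 8.

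Genes known to respond to progesterone, oestrogen or prolactin counted 8 higher and 2 lower of 19, with a median log2 fold change of 0.08. The range ran from -1.27 to 4.82. *Tnfsf11*, the RANK ligand through which progesterone reaches progenitor and basal cells, was at its top. It stood at 2.64 and 0.434 against 26.2 and 65.3 CPM (log2 fold change 4.82 ± 0.73 SE, adjusted p = 0.00659), or 39, 7, 98 and 94 UMIs. *Fkbp5*, induced by progesterone and glucocorticoid receptors, rose (9.55 and 10.04 against 32.3 and 52.8 CPM, log2 fold change 2.06 ± 0.25 SE, adjusted p = 0.00335), and so did the growth factor receptor *Igf1r* (6.57 and 5.08 against 22.98 and 20.2 CPM, log2 fold change 1.91 ± 0.22 SE, adjusted p = 0.00291). Non-epithelial cells of LATS1/2-KO mice held more *Fkbp5*, at 129 and 155 CPM. *Greb1*, an oestrogen receptor cofactor and target named after its values were seen, stood at 10.2 and 28.8 against 107 and 101 CPM (log2 fold change 2.41 ± 0.44 SE, adjusted p = 0.0116) and no longer passed without either LATS1/2-KO mouse. *Wnt4*, given above, had a log2 fold change of 0.35, adjusted p = 0.125. The counts of this list without 1 library ranged from 4 to 8 higher and from 0 to 7 lower.

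**Figure D2:**
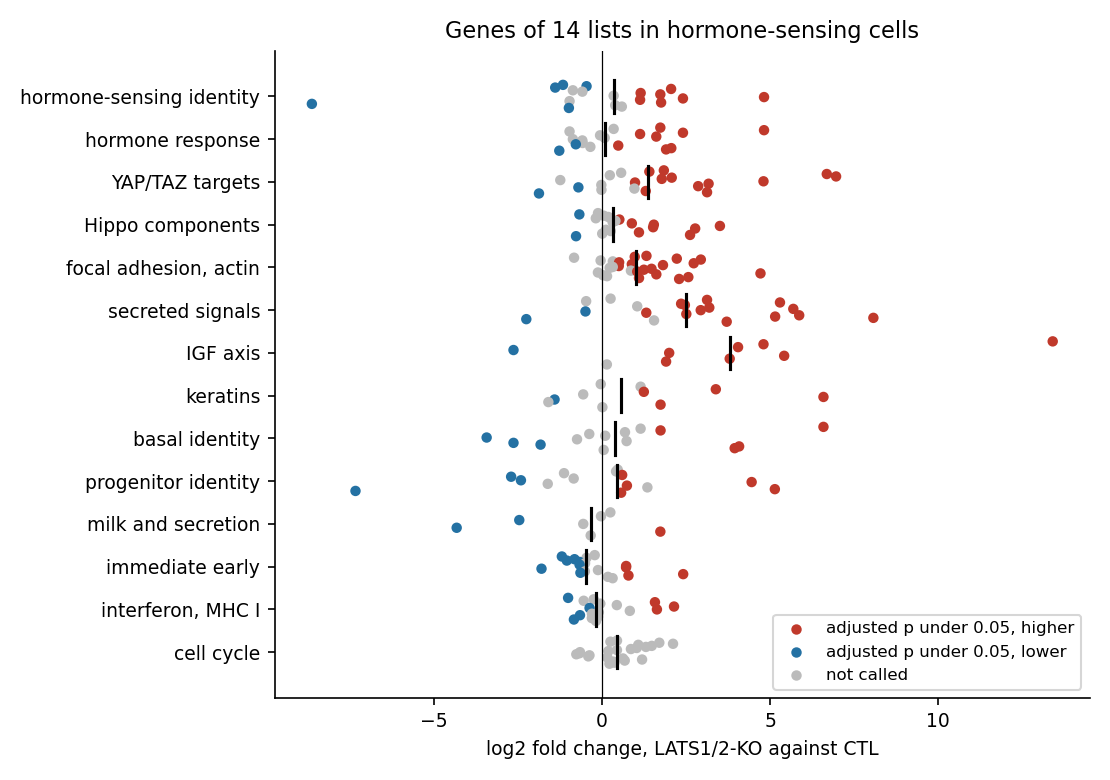
Log2 fold change of LATS1/2-KO against CTL hormone-sensing cells for the genes of 14 lists, 1 point per gene tested, coloured by direction where the adjusted p is under 0.05, with the list's median as a black bar. The focal adhesion, secreted signal and YAP/TAZ target lists lie mostly to the right, hormone-sensing genes lie on both sides, and none of the 23 cell cycle genes is called.

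YAP/TAZ target genes rose more often than they fell. Of 20 tested, 12 were higher and 2 lower, with a median log2 fold change of 1.35 and a range from -1.88 to 6.97. *Ankrd1*, a nuclear ankyrin protein, stood at 0.203 and 0.124 against 32.3 and 7.64 CPM (log2 fold change 6.97 ± 0.80 SE, adjusted p = 0.00291), with 3 and 2 UMIs in CTL and 121 and 11 in LATS1/2-KO. *Myof*, a ferlin of membrane repair, stood at 64.4 and 93.01 against 279 and 285 CPM (log2 fold change 1.84 ± 0.18 SE, adjusted p = 0.00186). *Rbms3*, an RNA-binding protein, went the other way (60.2 and 60.6 against 16.3 and 16.7 CPM, log2 fold change -1.88 ± 0.13 SE, adjusted p = 0.000722). *Cyr61*, the matricellular sister of *Ctgf*, was already high in CTL and overlapped between the groups (232 and 296 against 335 and 283 CPM, log2 fold change 0.23 ± 0.15 SE, adjusted p = 0.298). When only members with 0 UMIs of 9 genes of other cell types were used, *Krt14* among them, the list counted 2 higher and 2 lower of 17. That setting left 108 and 41 cells in the LATS1/2-KO mice and called 708 genes higher and 660 lower of 11500 in all. It dropped members for a *Krt14* UMI, and *Krt14* was itself higher in members with an *EYFP* UMI (below). The setting therefore cannot tell other cells' RNA from a response of the members. Under it *Igfbp2* had a log2 fold change of 8.03, *Msln* 5.34, *Ctgf* 4.44 and *Areg* 1.99, all past the threshold.

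The consensus core bound by TEAD factors, GGAATG on either strand, was searched in the 250 bases before each gene's start (RefSeq annotation, GRCm38.p6). Of the YAP/TAZ targets, 15 were matched to 17 promoters. The motif lay in 6 of these promoters (35.3%), against 4153 of 32851 promoters in all (12.6%). They belonged to *Amotl2*, *Ankrd1*, *Axl*, *Crim1*, *Cyr61* and *Ptpn14*. No motif lay in either *Igfbp2* promoter, and 1 lay in that of *Krt14*. A match describes the letters only. The promoters of *Ankrd1*, *Cyr61* and *Amotl2* are shown for these targets, 5′ to 3′ on the gene's strand with the motif or its reverse complement in capitals. They lie at chr19:36119845-36120094 (minus strand), chr3:145649986-145650235 (minus strand) and chr9:102717554-102717803 (plus strand), and the motifs start 210 and 123, 103 and 65 bases before the gene's start, respectively.
Ankrd1: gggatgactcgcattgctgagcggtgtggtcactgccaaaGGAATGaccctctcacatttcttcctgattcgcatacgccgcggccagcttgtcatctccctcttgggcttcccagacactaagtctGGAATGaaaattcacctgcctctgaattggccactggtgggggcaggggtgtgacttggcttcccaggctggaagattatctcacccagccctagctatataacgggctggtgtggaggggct
Cyr61: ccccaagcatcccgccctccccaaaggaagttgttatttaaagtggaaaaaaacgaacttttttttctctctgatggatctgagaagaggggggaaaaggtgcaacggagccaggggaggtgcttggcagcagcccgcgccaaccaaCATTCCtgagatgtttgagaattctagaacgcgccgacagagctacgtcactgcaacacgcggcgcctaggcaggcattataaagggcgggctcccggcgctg
Amotl2: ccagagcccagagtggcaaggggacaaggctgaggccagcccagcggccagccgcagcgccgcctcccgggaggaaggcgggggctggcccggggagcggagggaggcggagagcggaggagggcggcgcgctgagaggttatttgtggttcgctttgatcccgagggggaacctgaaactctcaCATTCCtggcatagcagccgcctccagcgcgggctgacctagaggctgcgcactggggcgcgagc

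Components of the Hippo pathway itself counted 8 higher and 2 lower of 19 (median 0.32, range -0.77 to 3.51). *Amot*, the scaffold angiomotin, rose (2.98 and 2.97 against 31.5 and 37.5 CPM, log2 fold change 3.51 ± 0.19 SE, adjusted p = 0.000456), as did the LIM protein *Ajuba*, which binds LATS kinases (2.78 and 3.35 against 21.6 and 20.2 CPM, log2 fold change 2.77 ± 0.22 SE, adjusted p = 0.00111), and the scaffold *Wwc2* (23.6 and 25.8 against 46.5 and 44.5 CPM, log2 fold change 0.89 ± 0.13 SE, adjusted p = 0.00569), which no longer passed without LATS1/2-KO replicate 1. *Yap1* stood at 39.97 and 39.2 against 41.95 and 44.5 CPM (log2 fold change 0.12 ± 0.12 SE, adjusted p = 0.485). Among the members without UMIs of other cell types, the list counted 0 higher and 1 lower of 19, beside 708 and 660 of 11500 over all genes.

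Focal adhesion and actin genes counted 17 higher and 0 lower of 26, with a median of 1.01 and a range from -0.83 to 4.72. Besides *Cald1*, *Flna*, the actin crosslinker filamin A, rose (27.8 and 35.1 against 207 and 211 CPM, log2 fold change 2.73 ± 0.14 SE, adjusted p = 0.000389). *Actn1*, the crosslinker alpha-actinin, stood at 76.8 and 85.2 against 274 and 297 CPM (log2 fold change 1.81 ± 0.11 SE, adjusted p = 0.000516), and *Itgb1*, the beta subunit of most laminin and collagen receptors, at 171 and 196 against 448 and 472 CPM (log2 fold change 1.32 ± 0.11 SE, adjusted p = 0.00127). For these 3 genes the LATS1/2-KO values lay above the CTL values and close to each other. The list counted 13 higher without either LATS1/2-KO mouse and 10 in the members without UMIs of other cell types.

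Secreted signals counted 13 higher and 2 lower of 19, with a median of 2.51 and a lowest value of -2.25. *Inhba*, the activin subunit, stood at 0.542 and 0.868 against 25.4 and 32.7 CPM (log2 fold change 5.30 ± 0.30 SE, adjusted p = 0.0005). The platelet-derived growth factors *Pdgfa* (15.9 and 12.5 against 74.02 and 70.9 CPM, log2 fold change 2.35 ± 0.15 SE, adjusted p = 0.000678) and *Pdgfb* (6.84 and 6.51 against 39.01 and 34.05 CPM, log2 fold change 2.47 ± 0.17 SE, adjusted p = 0.000722), which signal to fibroblasts and pericytes, rose with it. *Tgfb2*, a transforming growth factor, stood at 5.83 and 4.71 against 29.9 and 67.4 CPM (log2 fold change 3.13 ± 0.39 SE, adjusted p = 0.00373). The top of the list was the WNT modulator *Dkk2*, named after its values were seen, at 0 UMIs in CTL and 16 and 4 UMIs in LATS1/2-KO, at least 36.3-fold higher against the floor of 3 UMIs over the CTL group. Genes of the insulin-like growth factor axis counted 7 higher and 1 lower of 9 (median 3.80). They counted 2 higher and 0 lower of 4 with free RNA subtracted, beside 1272 and 1098 of 11790 over all genes. In the members without UMIs of other cell types they counted 2 higher and 1 lower of 6 (median 1.71). Over all genes that was 708 and 660 of 11500. Fewer of the list's genes were tested in these settings, so the counts do not cover the same genes. Besides *Igfbp2* and *Igfbp7*, *Igfbp5*, a binding protein of luminal and basal cells, moved the other way, with 219 and 199 against 37.9 and 26.4 CPM (log2 fold change -2.64 ± 0.17 SE, adjusted p = 0.000571).

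Among keratins, 4 rose and 1 fell of 10 tested (median 0.58, range -1.60 to 6.59). Beside *Krt14* these included *Krt6a*, a keratin of stressed and progenitor epithelium (5.89 and 8.98 against 86.04 and 68.1 CPM, log2 fold change 3.39 ± 0.23 SE, adjusted p = 0.000722), and *Krt7*, a simple epithelial keratin (462 and 453 against 1075 and 1094 CPM, log2 fold change 1.24 ± 0.10 SE, adjusted p = 0.000985). *Krt5*, the partner of *Krt14* in basal cells, was at 18 and 3 UMIs in LATS1/2-KO (1.83 and 1.61 against 4.81 and 2.08 CPM, log2 fold change 1.15 ± 0.47 SE, adjusted p = 0.114). The basal identity list as a whole counted 4 higher and 3 lower of 14 (median 0.39, range -3.43 to 6.59). *Sparc*, a matrix glycoprotein, rose (4.06 and 4.96 against 80.2 and 72.3 CPM, log2 fold change 4.08 ± 0.16 SE, adjusted p = 0.000158), while *Acta2*, the smooth muscle actin of myoepithelium, did not pass (16.1 and 8.37 against 24.05 and 12.5 CPM, log2 fold change 0.68 ± 0.40 SE, adjusted p = 0.25), though it did without CTL replicate 1 (1.23). Non-epithelial cells held *Sparc* at 243 and 216 CPM in CTL and 1470.1 and 1368 CPM in LATS1/2-KO, and after free RNA was subtracted its log2 fold change was -7.21 (adjusted p = 0.0581).

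Progenitor identity genes counted 5 higher and 3 lower of 14 (median 0.44, highest 5.14). *Cck*, a peptide hormone gene, was read 428 and 609 times in CTL members against 1 and 0 UMIs in those of LATS1/2-KO mice, a ratio per total UMIs of 169.5 with a 95% counting interval from 30.4 to 6703. *Trf*, the iron carrier transferrin, fell (81.7 and 93.3 against 17.4 and 14.6 CPM, log2 fold change -2.41 ± 0.15 SE, adjusted p = 0.000571), while *Itgb3*, the integrin CD61, rose (0.203 and 0.496 against 13.4 and 12.5 CPM, log2 fold change 5.14 ± 0.46 SE, adjusted p = 0.00144). Of 7 milk and secretory genes tested, 1 rose and 2 fell (median -0.34, range -4.33 to 1.74). The mucin *Muc15* (26.6 and 27.7 against 1.603 and 0.695 CPM, log2 fold change -4.33 ± 0.29 SE, adjusted p = 0.000722) and the fat globule protein *Btn1a1* (14.4 and 12.02 against 1.603 and 4.17 CPM, log2 fold change -2.46 ± 0.39 SE, adjusted p = 0.00736) fell, and the lipid droplet protein *Plin2* rose (34.6 and 34.3 against 137 and 86.9 CPM, log2 fold change 1.74 ± 0.20 SE, adjusted p = 0.0031). *Btn1a1* no longer passed without LATS1/2-KO replicate 1.

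Immediate early and heat shock genes, which respond to tissue dissociation, counted 4 higher and 7 lower of 18 (median -0.48, range -1.80 to 2.42). The chaperone *Hspa1a* rose (89.2 and 89.2 against 401 and 555 CPM, log2 fold change 2.42 ± 0.17 SE, adjusted p = 0.000748), and the transcription factors *Fosb* (1901 and 1620.1 against 762 and 775 CPM, log2 fold change -1.20 ± 0.12 SE, adjusted p = 0.00188) and *Nr4a1* (185 and 132 against 44.4 and 47.2 CPM, log2 fold change -1.80 ± 0.19 SE, adjusted p = 0.00221) fell. *Fos* stood at 3274 and 2998 against 2683 and 2709.9 CPM (log2 fold change -0.22 ± 0.10 SE, adjusted p = 0.167). Interferon response and MHC class I genes counted 3 higher and 4 lower of 17 (median -0.18, range -1.01 to 2.14). *Usp18* (13.9 and 16.8 against 50.5 and 43.8 CPM, log2 fold change 1.63 ± 0.16 SE, adjusted p = 0.00191) and *Irf7* (5.62 and 6.44 against 18.4 and 17.4 CPM, log2 fold change 1.58 ± 0.20 SE, adjusted p = 0.00381), both induced by interferon, rose. The immunoproteasome subunit *Psmb8* (433 and 391 against 222 and 240.4 CPM, log2 fold change -0.84 ± 0.11 SE, adjusted p = 0.00398) and the class I heavy chain *H2-K1* (2767 and 2309 against 1727 and 1493 CPM, log2 fold change -0.66 ± 0.14 SE, adjusted p = 0.0172) fell, and *H2-K1* no longer passed without either LATS1/2-KO mouse.

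Markers of other cells moved with the condition in the members. Of fibroblast markers 7 rose of 9 tested. Their summed level without *Dcn* was 7.32 and 12.3 CPM in CTL and 81.2 and 97.4 CPM in LATS1/2-KO members, against 531 and 712 CPM in non-epithelial cells of the latter libraries. *Dcn* itself, a proteoglycan, was left out of that sum because it made up 92.6 to 98.8% of the UMIs of the 5 fibroblast genes first planned for an estimate of free RNA, in members of CTL mice too. Macrophage markers, 4 of 5 higher, summed to 9.95 and 9.46 CPM in CTL and 62.5 and 25.8 CPM in LATS1/2-KO members. Endothelial markers, 2 of 4 higher, summed to 13.9 and 13.8 against 33.9 and 13.6 CPM. Lymphocyte markers, of which 1 was tested and fell, summed to 15.95 and 23.7 against 2.67 and 0.716 CPM, and *Cd3d*, *Cd3e*, *Cd3g* and *Nkg7* were at 0 in both LATS1/2-KO mice. Free RNA, estimated from *Lum*, *Serpinf1* and *Mfap5*, came to 2.37 and 12.5% of members' UMIs in CTL and 14.2 and 11.5% in LATS1/2-KO. These estimates rest on 11 and 28 UMIs of the 3 genes in CTL members and 103 and 52 in LATS1/2-KO members. The profile of all kept cells of a library stood for its free RNA. With it subtracted, 2370 genes passed. Basal genes, *Krt14* included, summed to 518 and 387 CPM in CTL and 1117 and 858 CPM in LATS1/2-KO members. The rise of *Krt14* alone, given above, was close in size to the rise of this sum. The sum therefore does not show a rise of the other basal genes. The part of other cells' RNA in the remaining results was not tested beyond these settings.

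Within the LATS1/2-KO mice, the reporter divided the members into cells with different transcripts. *Igfbp2*, *Msln*, *Krt14* and *Ctgf* were higher in EYFP+ members, and *Areg*, *Greb1*, *Stc2* and *Spdef* were higher in EYFP- members. In a test of EYFP+ against EYFP- members with the mouse as block, 1322 of 7723 genes (17.1%) passed, 743 higher (9.62%) and 579 lower (7.50%) in EYFP+ cells. The 4 sums came from 51 and 28 EYFP+ and 315 and 89 EYFP- cells. EYFP+ cells were deeper, with medians of 13345 and 15196 against 9202 and 10418 UMIs, and had 3 of the 6 hormone-sensing genes detected at the median against 4. With cells thinned to 2000 UMIs, 139 of 2378 genes passed. DESeq2 called 347 and the fit without the mouse block 804.

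*Igfbp2* stood at 96.1 and 61.7 CPM in EYFP- cells and 6400.0 and 5551 CPM in EYFP+ cells of the LATS1/2-KO mice, beside 0.283 and 0 CPM in the CTL mice (log2 difference 6.23 ± 0.10 SE, adjusted p = 2.98e-20). Non-epithelial cells of the LATS1/2-KO mice held 96.1 and 96.6 CPM, close to the EYFP- members. After thinning, an *Igfbp2* UMI was found in 49.02 and 46.4% of EYFP+ members, 17.2 and 15.7% of EYFP- members and 19.8 and 17.3% of non-epithelial cells (unthinned 66.7 and 67.9%, 45.4 and 35.96% and 41.98 and 38.2%). The thinned share in EYFP- members was below that of non-epithelial cells in each mouse. The unthinned share was above it in replicate 1 and below it in replicate 2. In replicate 1, 1 EYFP- member gave 110 of the 284 *Igfbp2* UMIs of that class. Whether the transcripts of EYFP- members are background was not tested. *Msln* had 5.75 and 7.96 CPM in EYFP- against 714 and 1099.8 CPM in EYFP+ cells (log2 difference 7.03 ± 0.16 SE, adjusted p = 7.37e-18) and 7.85 and 7.18 CPM in non-epithelial cells. *Krt14* had 77.1 and 38.8 CPM in EYFP- against 2611 and 1398 CPM in EYFP+ cells (log2 difference 5.14 ± 0.11 SE, adjusted p = 1.37e-18), with 94.8 and 254 CPM in non-epithelial cells. *Ctgf* had 31.5 and 36.8 CPM in EYFP- against 557 and 583 CPM in EYFP+ cells (log2 difference 4.13 ± 0.13 SE, adjusted p = 3.88e-15), with 77.8 and 110.3 CPM in non-epithelial cells. For *Igfbp2*, *Krt14* and *Ctgf* the EYFP- members of each mouse lay at or below its non-epithelial cells, and for *Msln* this held in replicate 1 and not in replicate 2. The differences between EYFP+ and EYFP- members also passed in thinned cells, at 5.68 (adjusted p = 4.94e-06) for *Igfbp2*, 6.13 (adjusted p = 0.000352) for *Msln*, 5.11 (adjusted p = 2.33e-05) for *Krt14* and 4.30 (adjusted p = 0.000441) for *Ctgf*.

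Even among EYFP+ members the *Igfbp2* transcripts came from a minority of cells. Of 51 EYFP+ members in LATS1/2-KO replicate 1, 21 (41.2%) held at least 10 *Igfbp2* UMIs per 10000, and these cells gave 4877 of 4910 *Igfbp2* UMIs. In LATS1/2-KO replicate 2 it was 9 of 28 cells (32.1%) with 2428 of 2458 UMIs. The EYFP+ medians over all cells were 1.19 and 1.03 per 10000, and the highest cells reached 379 and 322 per 10000. Of EYFP- members, 1 of 315 and 1 of 89 passed the same level. A *Wnt4* UMI was present in 20 of the 21 and 7 of the 9 high cells, which had 3 of the 6 hormone-sensing genes detected at the median. The high cells were deep, with medians of 18192 and 17364 UMIs, and no doublet caller was run, so the part of doublets was not tested. High cells were also found outside the hormone-sensing class, as 132 of 399 and 218 of 507 EYFP+ progenitor-type cells. They were also 138 of 1517 and 131 of 1544 EYFP- progenitor-type cells. A *Wnt4* UMI was present in 65 of the 132 and 110 of the 218 high EYFP+ progenitor-type cells. It was present in 59 of the 138 and 46 of the 131 high EYFP- progenitor-type cells. The level of 10 per 10000 was chosen after the values were seen.

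The hormone-responsive genes showed the opposite arrangement. *Areg* stood at 3926 and 3411 CPM in EYFP- cells and 1167 and 1407 CPM in EYFP+ cells of the LATS1/2-KO mice, beside 1258 and 672 CPM in the CTL mice (log2 difference -1.49 ± 0.09 SE, adjusted p = 8.48e-11), and in thinned cells the difference was -1.22 (adjusted p = 0.00427). Thinned, *Areg* was found in 94.9 and 93.3% of EYFP- and 56.9 and 67.9% of EYFP+ members (unthinned 99.05 and 97.8% and 78.4 and 78.6%), beside 55.04 and 42.3% of CTL members. *Tnfsf11* stood at 32.5 and 92.6 CPM in EYFP- cells and 2.61 and 2.26 CPM in EYFP+ cells of the LATS1/2-KO mice, beside 2.76 and 0.453 CPM in the CTL mice. The EYFP+ values rest on 3 UMIs, against 189 in EYFP- cells, a ratio of 18.03 with a 95% counting interval from 6.08 to 88.2. *Greb1* had 126 and 130.4 CPM in EYFP- against 33.9 and 31.6 CPM in EYFP+ cells (log2 difference -1.91 ± 0.21 SE, adjusted p = 8.46e-07), *Stc2* 463 and 555 CPM in EYFP- against 229 and 237 CPM in EYFP+ cells (log2 difference -1.06 ± 0.11 SE, adjusted p = 3.56e-07) and *Spdef* 34.8 and 37.8 CPM in EYFP- against 7.82 and 4.52 CPM in EYFP+ cells (log2 difference -2.39 ± 0.42 SE, adjusted p = 0.000244). In thinned cells *Greb1*, at -1.59 (adjusted p = 0.114), and *Stc2*, at -0.61 (adjusted p = 0.185), no longer passed, and *Spdef* and *Tnfsf11* were too low to be tested. *Wnt4* had 458 and 574 CPM in EYFP- against 452 and 589 CPM in EYFP+ cells (log2 difference 0.05 ± 0.09 SE, adjusted p = 0.817).

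**Figure D3:**
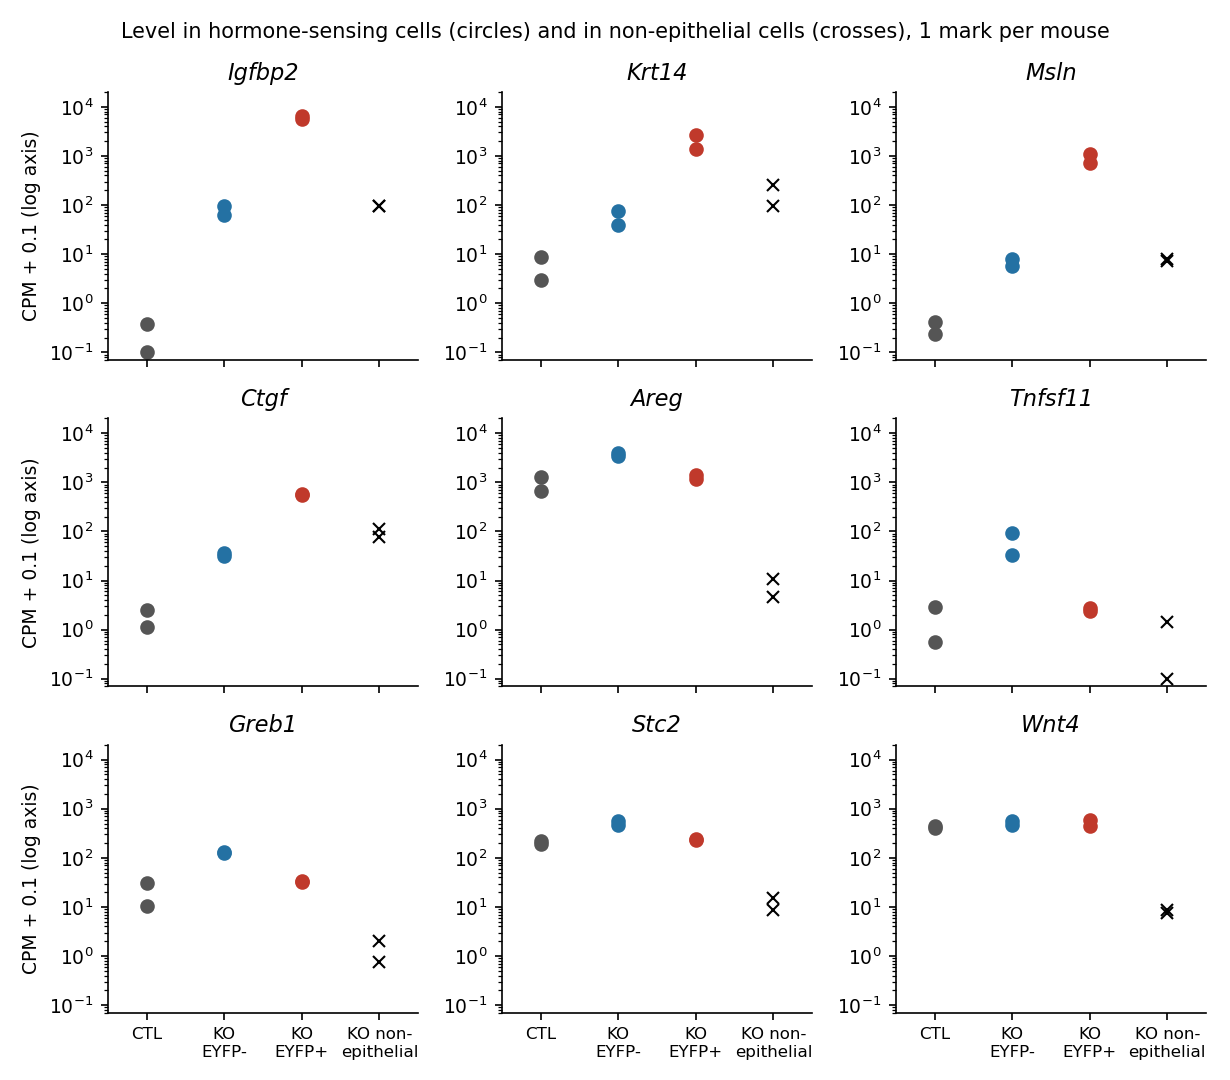
CPM + 0.1 on a log axis of 9 genes in hormone-sensing cells of the CTL mice, in EYFP- and EYFP+ hormone-sensing cells of the LATS1/2-KO mice (circles, CPM on 1 common scale) and in non-epithelial cells of the LATS1/2-KO mice (crosses, CPM of their own sums), 1 mark per mouse. *Igfbp2*, *Krt14*, *Msln* and *Ctgf* are highest in EYFP+ cells, with EYFP- cells at or below non-epithelial cells or close to them, while *Areg*, *Tnfsf11*, *Greb1* and *Stc2* are highest in EYFP- cells.

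Of hormone-sensing identity genes, 0 were higher and 10 lower of 16 in EYFP+ members (median -0.83), and of hormone response genes 2 were higher and 8 lower of 17 (median -0.63). YAP/TAZ targets counted 11 higher and 2 lower of 19 (median 1.44), Hippo components 7 higher and 0 lower of 18 (median 0.49), and focal adhesion and actin genes 20 higher and 1 lower of 25 (median 1.17). Secreted signals counted 11 higher and 0 lower of 16 (median 2.02), with *Tgfb2* at 7.44 and 10.95 CPM in EYFP- against 117 and 194 CPM in EYFP+ cells (log2 difference 4.07 ± 0.25 SE, adjusted p = 8.48e-11). *Amot*, the Hippo scaffold, had 8.796 and 6.97 CPM in EYFP- against 119.9 and 106 CPM in EYFP+ cells (log2 difference 3.84 ± 0.26 SE, adjusted p = 4.33e-10). *Cyr61*, which did not pass between the conditions, had 240.2 and 207 CPM in EYFP- against 709 and 449 CPM in EYFP+ cells (log2 difference 1.44 ± 0.11 SE, adjusted p = 5.41e-09). Over all genes tested, 9.62% were higher and 7.50% lower, with a median of -0.0034. Fewer genes passed in cells thinned to 2000 UMIs. There hormone-sensing identity genes counted 0 higher and 3 lower of 12, and hormone response genes 0 and 2 of 9. YAP/TAZ targets counted 5 and 0 of 8, focal adhesion and actin genes 8 and 0 of 21, and secreted signals 4 and 0 of 6. Over all genes it was 98 and 41 of 2378. The 1 Hippo gene tested did not pass.

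**Figure D4:**
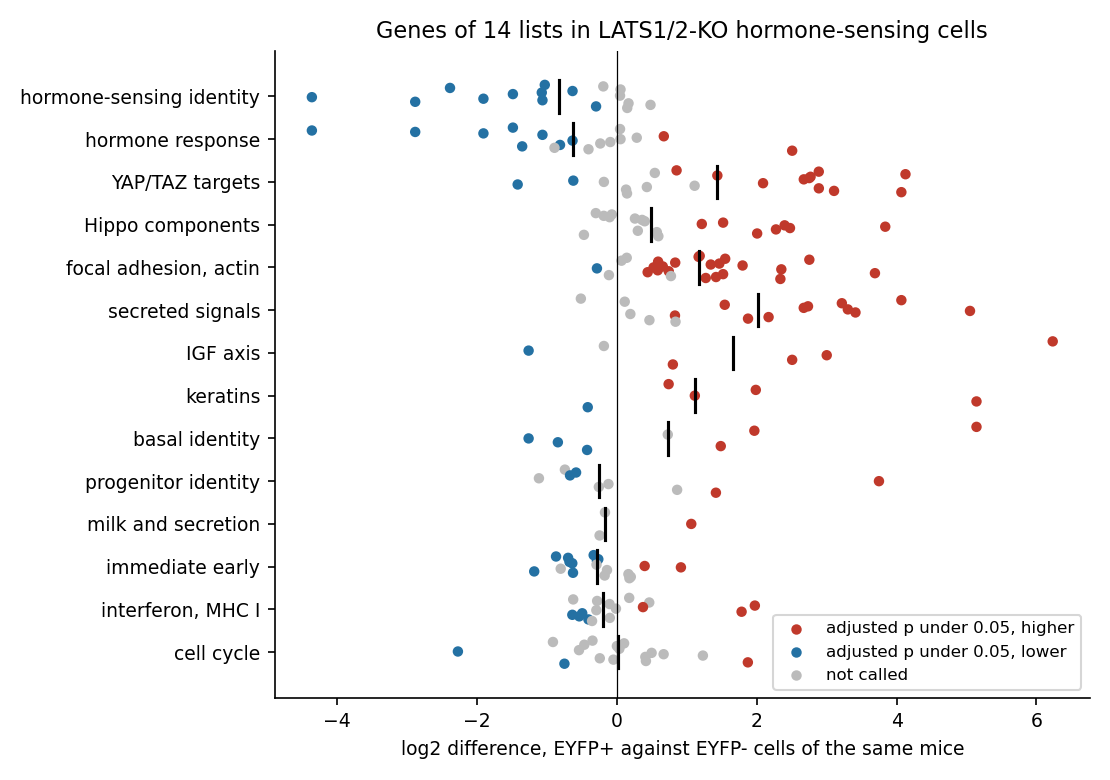
Log2 difference of EYFP+ against EYFP- hormone-sensing cells of the same LATS1/2-KO mice for the genes of 14 lists, 1 point per gene tested, coloured by direction where the adjusted p is under 0.05, with the list's median as a black bar. Hormone-sensing genes lie mostly to the left of 0, and YAP/TAZ target, focal adhesion and secreted signal genes mostly to the right.

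Among called genes with a mean log2 CPM of at least 5 and no overlap between the classes, the 5 largest gains in EYFP+ members were *Msln*, *Cdh2*, *Sox11*, *Igfbp2* and *Upk1b*. *Cdh2*, the mesenchymal cadherin, had 1.01 and 0 CPM in EYFP- against 83.4 and 147 CPM in EYFP+ cells, which is 129 against 3 UMIs and a ratio of 150.2 with a counting interval from 50.3 to 738. *Sox11*, an embryonic transcription factor, had 2.37 and 2.99 CPM in EYFP- against 263 and 126 CPM in EYFP+ cells (log2 difference 6.47 ± 0.29 SE, adjusted p = 7.86e-13) and 1 UMI in each CTL mouse. *Upk1b*, a uroplakin of urothelium, had 3.72 and 0.996 CPM in EYFP- against 166 and 285 CPM in EYFP+ cells (log2 difference 6.04 ± 0.30 SE, adjusted p = 3.35e-12). The losses by the same limits were led by *Defb1*, an antimicrobial defensin, with 192 and 160.3 CPM in EYFP- against 1.303 and 2.26 CPM in EYFP+ cells. The EYFP+ cells held 2 UMIs of it against 728, a ratio of 104.2 with a counting interval from 28.7 to 862. *Tnfsf11* was next by this measure, and *Fgb*, a fibrinogen chain, had 355 and 163 CPM in EYFP- against 37.8 and 11.3 CPM in EYFP+ cells (log2 difference -3.30 ± 0.20 SE, adjusted p = 6.97e-11). *Cpxm1* had 34.2 and 141 CPM in EYFP- against 2.61 and 6.77 CPM in EYFP+ cells (log2 difference -4.08 ± 0.41 SE, adjusted p = 1.9e-07), and non-epithelial cells of these mice held 345 and 682 CPM.

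Each reporter class was also set against the same CTL members, so that these comparisons share their controls. EYFP- members differed from CTL in 2642 of 12017 genes (22.0%), of which 1403 (11.7%) were higher and 1239 (10.3%) lower. EYFP+ members differed from CTL in 2724 of 11956 genes (22.8%), with 1372 (11.5%) higher and 1352 (11.3%) lower. Hormone-sensing identity genes counted 7 higher and 3 lower of 18 in EYFP- members and 1 higher and 5 lower in EYFP+ members. For YAP/TAZ targets it was 6 higher and 2 lower against 14 higher and 3 lower of 20. Focal adhesion and actin genes counted 13 higher and 0 lower of 26 in EYFP- members (median 0.65) and 19 higher and 0 lower in EYFP+ members (median 1.67). *Areg* had a log2 fold change of 2.00 (adjusted p = 0.00532) in EYFP- members and 0.46 (adjusted p = 0.288) in EYFP+ members. *Fxyd2*, the lost sodium pump subunit, had 4.398 and 5.97 CPM in EYFP- against 1.303 and 4.52 CPM in EYFP+ cells. *Phyh* had 120.1 and 90.6 CPM in EYFP- against 66.5 and 40.6 CPM in EYFP+ cells (log2 difference -0.90 ± 0.19 SE, adjusted p = 0.00205), *Fgfr2* 103 and 94.6 CPM in EYFP- against 99.1 and 122 CPM in EYFP+ cells (log2 difference 0.15 ± 0.17 SE, adjusted p = 0.636) and *Gata3* 149 and 179 CPM in EYFP- against 88.6 and 56.5 CPM in EYFP+ cells (log2 difference -1.03 ± 0.19 SE, adjusted p = 0.000445). *Hspa1a* lay above CTL in both classes, at 394 and 541 CPM in EYFP- cells and 438 and 578 CPM in EYFP+ cells of the LATS1/2-KO mice, beside 92.99 and 93.2 CPM in the CTL mice.

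The response of hormone-sensing cells was then tested against that of progenitor-type cells of the same mice. In this interaction, 3181 of 14225 genes (22.4%) passed, of which 1875 (13.2%) had a higher and 1306 (9.18%) a lower log2 fold change in hormone-sensing cells. Without LATS1/2-KO replicate 1 the count was 1571. In hormone-sensing cells edgeR called 0 of 23 cell cycle genes (2 at an unadjusted p under 0.05, 0 by DESeq2, median 0.44). In progenitor-type cells 20 rose and 1 fell (median 3.59). Over all genes, 4340 rose and 4012 fell of 13617 tested in progenitor-type cells. In hormone-sensing cells 1822 rose and 1629 fell of 12227, so a call was less frequent there. The interaction called 2 higher and 19 lower of 23, with a median of -2.90. *Mki67*, a marker of cycling cells, stood at 2.303 and 30.9 CPM in the CTL mice and 17.6 and 30.6 CPM in the LATS1/2-KO mice (log2 fold change 0.45 ± 1.05 SE, adjusted p = 0.786), and in progenitor-type cells at 3.27 and 5.68 CPM in CTL and 91.9 and 79.7 CPM in LATS1/2-KO. The CTL mice lay apart for these genes. Without CTL replicate 2, 13 of the 23 were higher in LATS1/2-KO hormone-sensing cells and *Mki67* passed, whereas without CTL replicate 1, 1 was higher and 5 lower. The interaction still counted 2 higher and 15 lower without CTL replicate 2, 1 higher and 10 lower without LATS1/2-KO replicate 1, and 1 higher and 10 lower by DESeq2.

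**Figure D5:**
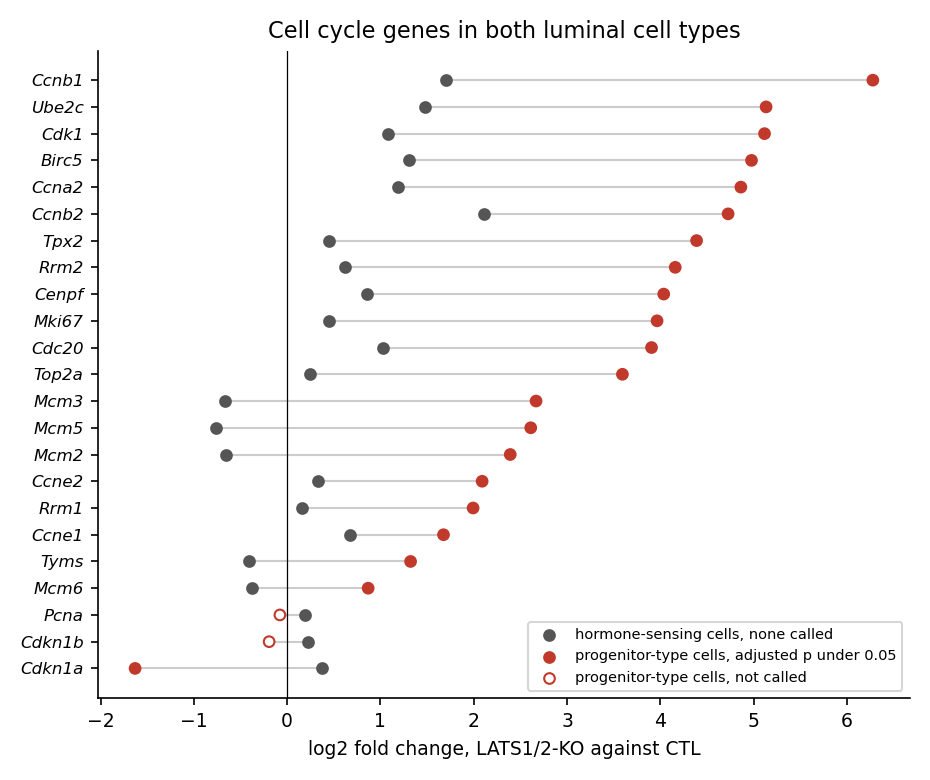
Log2 fold change of LATS1/2-KO against CTL for 23 cell cycle genes in hormone-sensing cells (grey, none called) and progenitor-type cells (red, filled where the adjusted p is under 0.05), joined by a line for each gene. For 20 genes the progenitor-type value is called and lies to the right of the hormone-sensing value.

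Hormone-sensing identity genes counted 10 with a higher and 1 with a lower response in hormone-sensing than in progenitor-type cells, of 19 (median 1.52), and immediate early genes 14 and 0 of 18 (median 1.02). In progenitor-type cells immediate early genes had fallen in 12 cases and risen in 3, where 4012 of all 13617 genes tested fell and 4340 rose. YAP/TAZ targets differed in both directions, 5 higher and 3 lower of 21 (median -0.11), and focal adhesion and actin genes counted 6 higher and 3 lower of 26 (median 0.03). Milk and secretory genes, of which 9 of 11 fell in progenitor-type cells, counted 4 higher and 1 lower.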

How the data were processed

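Single-cell RNA sequencing libraries of 2 CTL and 2 LATS1/2-KO mice were analysed (28693 genes). The authors deposited raw UMI counts per gene and cell, whose headers name Cell Ranger 6.1.2, while the submitters' processing notes name 3.1.0 and mm10. Cells with over 500 genes and under 20% mitochondrial UMIs were kept, 18200 of 20324. No doublet caller was run. The 58 symbols listed more than once were not tested. Members and lists were chosen with earlier results of these data known. Counts were summed per mouse and tested with edgeR 4.0.16 (quasi-likelihood, TMM, filterByExpr, Benjamini-Hochberg, adjusted p under 0.05) in R 4.3.3, with DESeq2 1.42.0 as an alternative. CPM are TMM-scaled for hormone-sensing cells and plain for other cells. Interaction and reporter fits held the mouse as block. P-values between conditions measure the spread between 2 mice per condition. Those of the reporter fit compare EYFP+ with EYFP- cells within 2 LATS1/2-KO mice. They lean on a spread estimated over many genes. Named genes were, among genes past the threshold with a mean log2 CPM of at least 5 and groups that did not overlap, the 8 largest changes each way between conditions and the 5 each way in the other fits, the members of lowest adjusted p and a defining member per list, and the genes of the rule. Of these, 1 gene is not reported here. Non-epithelial cells held at least 3 UMIs of endothelial, lymphocyte or macrophage markers and few of *Krt8* and *Krt18*. On counts made with known changes, the test between conditions recovered 50.0% of genes changed by a log2 of 1 and 93.9% at 2. Those counts gave every gene the same dispersion (0.0205), so recovery of more variable genes in these data is not described. Promoters are from RefSeq. Python 3.11.15 was used with scipy 1.17.1.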

Additional observations from a re-analysis of the deposited data

Results flagged for a closer look

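Among genes past the threshold with a mean log2 CPM of at least 5 and no overlap between conditions, these 10 had the largest differences in response between hormone-sensing and progenitor-type cells, 5 each way, in edgeR's interaction test. They are given as values, and genes outside these limits can have larger ones. The interaction is the log2 fold change in hormone-sensing cells minus that in progenitor-type cells.

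*Upk3a* had an interaction of 4.97 ± 0.61 SE, adjusted p = 0.000103, with 67.7 and 154 CPM in CTL against 47.6 and 22.7 CPM in LATS1/2-KO hormone-sensing cells, and 4.17 and 18.9 against 0.205 and 0 CPM in progenitor-type cells. *Lrg1* had an interaction of 4.96 ± 0.16 SE, adjusted p = 7.57e-09, with 13.2 and 15.3 CPM in CTL against 122 and 97.5 CPM in LATS1/2-KO hormone-sensing cells, and 268 and 387 against 80.3 and 82.3 CPM in progenitor-type cells. *Pdzk1ip1* had an interaction of 4.43 ± 0.21 SE, adjusted p = 1.56e-07, with 34.99 and 43.3 CPM in CTL against 57.7 and 35.4 CPM in LATS1/2-KO hormone-sensing cells, and 114 and 174 against 8.14 and 7.89 CPM in progenitor-type cells. *Apod* had an interaction of 3.82 ± 0.21 SE, adjusted p = 4.46e-07, with 1.47 and 3.0995 CPM in CTL against 22.3 and 80.2 CPM in LATS1/2-KO hormone-sensing cells, and 43.1 and 86.9 against 52.04 and 141 CPM in progenitor-type cells. *Ggt1* had an interaction of 3.70 ± 0.28 SE, adjusted p = 3.38e-06, with 124 and 88.7 CPM in CTL against 59.8 and 67.5 CPM in LATS1/2-KO hormone-sensing cells, and 15.6 and 15.6 against 0.9001 and 0.547 CPM in progenitor-type cells.

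For *Cdk1* the interaction was -3.72 ± 0.52 SE, adjusted p = 0.00027, with 2.07 and 26.6 CPM in CTL against 25.9 and 36.1 CPM in LATS1/2-KO hormone-sensing cells, and 1.96 and 4.08 against 115 and 78.2 CPM in progenitor-type cells. For *Hist1h2ap* the interaction was -3.61 ± 0.41 SE, adjusted p = 5.57e-05, with 7.73 and 37.1 CPM in CTL against 46.1 and 12.7 CPM in LATS1/2-KO hormone-sensing cells, and 4.58 and 7.27 against 195 and 24.4 CPM in progenitor-type cells. For *Anln* the interaction was -3.56 ± 0.36 SE, adjusted p = 2.42e-05, with 6.13 and 24.01 CPM in CTL against 25.6 and 34.1 CPM in LATS1/2-KO hormone-sensing cells, and 2.57 and 3.71 against 85.6 and 67.3 CPM in progenitor-type cells. For *Birc5* the interaction was -3.34 ± 0.58 SE, adjusted p = 0.00122, with 1.47 and 22.2 CPM in CTL against 24.6 and 35.4 CPM in LATS1/2-KO hormone-sensing cells, and 2.49 and 4.51 against 120.1 and 83.8 CPM in progenitor-type cells. For *Arg1* the interaction was -3.32 ± 0.27 SE, adjusted p = 4.65e-06, with 74.2 and 82.2 CPM in CTL against 59.8 and 34.1 CPM in LATS1/2-KO hormone-sensing cells, and 5.48 and 10.3 against 47.4 and 48.4 CPM in progenitor-type cells. *Cdk1*, *Birc5*, *Hist1h2ap* and *Upk3a* no longer passed without the mouse block, nor *Cdk1* and *Birc5* by DESeq2.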

How the results depend on the processing

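Between conditions, the 3451 calls became 2190 with sums thinned to the smallest and 1368 in members with 0 UMIs of 9 genes of other cell types, a setting chosen after seeing the data. Leaving out 1 mouse gave 1212 to 3225. Other settings gave 2370 to 4296. The interaction's 3181 calls became 1955 by DESeq2 and 1571 to 2741 without 1 mouse. The reporter comparison's 1322 calls became 804 without the mouse block, 139 in thinned cells and 347 by DESeq2. The mean CTL share of 24.3% became 12.7% after thinning, 21.4% with 4 genes required and 26.5% of luminal cells. The LATS1/2-KO mean of 5.18% became 1.46, 2.97 and 6.45%, and 7.39% with 2 genes required.

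Same-numbered deviations correlated at 0.0355 over 12227 genes. That value rests only on the difference between replicates within each condition, so it cannot decide whether replicate numbers pair the mice. With the replicate block 3632 genes passed.

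Of the named genes, these changed direction: *Cyr61* (-0.22 in EYFP- members only, -0.26 in members without other cells' UMIs), *Lats1* (-0.42 to 0.045 without 1 mouse, 0.036 with 4 genes required, 0.34 without other cells' UMIs), *Mki67* (-0.47 to 3.28 without 1 mouse, -0.14 with free RNA subtracted), *Sparc* (-7.21 with free RNA subtracted), *Spdef* (-0.080 in EYFP+ members only) and *Tgfb2* (-0.33 without other cells' UMIs). The cause was not tested. Of 1092 alternatives for 65 named genes, 1044 kept direction and side of the threshold. Free RNA was not estimated from the 5 genes planned, which gave 36.5 to 173% of members' UMIs.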
